A study of Mus musculus with 11 samples.

Results

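The collagen genes were 42 of the 21452 protein-coding genes represented in the RNA-seq files of im-scWAT cells, a line of preadipocytes from mouse inguinal subcutaneous white fat. They were taken as the sense, representative coding rows whose symbol is Col, a number, a and a number, and were grouped into 11 fibrillar collagens, 8 basement membrane collagens (type IV chains, Col15a1 and Col18a1) and 23 other collagens. The rule uses the symbol and annotation and no expression value, and the family was chosen with earlier results of these data known. Collagens are extracellular proteins whose chains wind into triple helices. Fibrillar collagens assemble into the fibres of the stroma, type IV collagen forms the sheet-like basement membrane that surrounds each mature fat cell, and type VI collagen, abundant in adipose tissue, forms beaded filaments next to it. Preadipocytes are fibroblast-like cells that secrete fibrillar collagen, and they acquire a basement membrane as they differentiate.

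The study followed im-scWAT cells through adipogenesis and asked how the histone demethylase JMJD1A acts in beige fat cells. In the time course of 6 samples, cells at confluence (D0) were induced with indomethacin, dexamethasone, isobutylmethylxanthine, insulin and T3, and sampled at D4 and D8, either with rosiglitazone (ROS, a PPARγ ligand, 0.5 μM) or without it. D4 and D8 had 1 sample with and 1 without ROS, and the 2 samples of D0, 1 from each arm and not yet treated, were taken as replicates. A further 5 samples, all at D8 with ROS, carried an shRNA against mouse Jmjd1a (sh-mJmjd1a) and a retroviral human hJMJD1A: wild type (WT A and WT B), S265A, which lacks the serine phosphorylated by protein kinase A, S265D, which mimics that phosphorylation, and S265D-H1120Y, which adds a change of the catalytic histidine. All cells came from a single line immortalized with SV40 large T antigen, and the human cDNAs were driven by a retroviral vector in place of the native promoter. The sources differ on whether ROS was withdrawn for the last day before D8. The labels do not say that replicates came from separate cultures, so p-values measure only the spread between these samples, which may be technical.

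FPKM, which counts fragments per length of exon and per depth of the library, is a level per length. Levels of different collagens may thus be compared, though they depend on the transcript model taken for each gene. Total mapped bases went from 3.10 to 5.29 Gb per sample with a median of 4.64 Gb, at which an FPKM of 0.00378 to 0.00644 stood for 100 bases on a transcript of 5 kb. Of genes with an FPKM of at least 1, 0.294% were 2-fold apart or more within the D0 pair and 16.9% between WT A and WT B. Mouse Kdm3a, the gene of JMJD1A and target of the shRNA, had an FPKM of 13.0 to 28.5 in the 5 libraries labelled sh-mJmjd1a and 21.1 in untransduced cells at D8 with ROS, so a reduction was not visible in these libraries as a group. Reads from the human cDNA were not separated. The paper reports, from immunoblot and qPCR, that the shRNA depleted the endogenous JMJD1A efficiently. The adipocyte hormone gene Adipoq had an FPKM of 0.121 and 0.0519 at D0 and of 396 to 1291 in the other 9 samples. The defining markers of leukocytes (Ptprc, Emr1) and skeletal muscle (Myod1, Myog, Ckm) were at 0 in all 11 samples, and those of endothelium and epithelium stayed under 1 except Pecam1, which reached 3.47 in the transduced cells. Cd68, a lysosomal protein abundant in macrophages, reached 21.7 there. Sox9, a factor of chondrocytes, was at 8.78 and 8.67 at D0 and at most 3.81 later, while the cartilage proteoglycan Acan was at most 0.00272.

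Of the 42 collagens, 20 had a mean FPKM of at least 1 over the 11 samples, 15 of at least 10 and 7 of at least 100. These 7 were Col1a1 and Col1a2, the chains of type I collagen, Col3a1, Col4a1 and the type VI chains Col6a1, Col6a2 and Col6a3. The remaining 22 were under 1 on average, 13 of them under 0.1, and Col9a1, Col4a4 and Col13a1 were listed at 0 in all samples. Together the collagens took 0.605% and 0.586% of the summed coding FPKM at D0. At D4 they took 0.402% with ROS and 0.497% without it, and at D8 0.191% with ROS and 0.404% without it. The share at D8 with ROS was the lowest of the 11 samples, and the 5 transduced samples lay between 0.369% and 0.470%.

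The composition of the collagen FPKM also differed between days. Fibrillar collagens made up 58.9% and 58.2% of collagen FPKM at D0, 27.9% and 34.3% at D4 with and without ROS, and 26.2% and 38.5% at D8. Basement membrane collagens went from 5.33% and 5.43% at D0 to 21.7% and 19.6% at D4 and to 29.9% and 19.9% at D8. The type VI chains went from 32.1% and 32.9% to 49.7% and 45.2% and then 43.0% and 40.5%. Col1a2 was the highest collagen in both samples of D0, and Col6a1 in each of the other 9 samples.

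**Figure D1:**
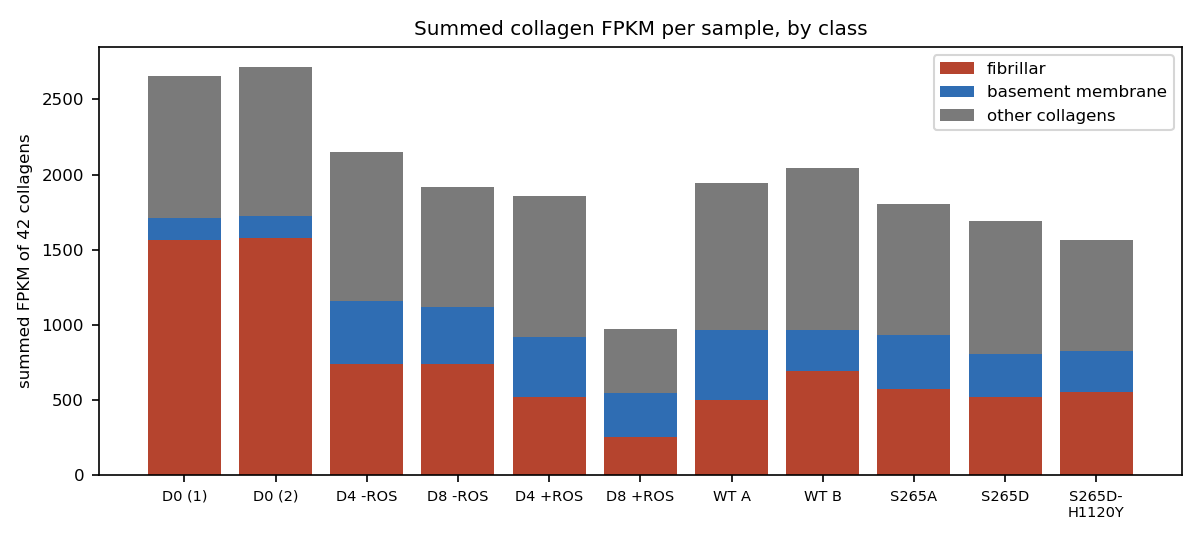
Summed FPKM of the 42 collagens in each of the 11 samples (1 bar per sample), divided into fibrillar, basement membrane and other collagens. The fibrillar part is the largest at D0 (1566 and 1579 FPKM) and smallest at D8 with ROS (255), while the basement membrane part is smallest at D0 (142 and 147).

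Among the 28 collagens tested (mean FPKM of at least 0.1 over the time course), 9 were higher and 11 lower at D4 than at D0, averaged over both arms, by limma on log2(FPKM + 0.1) with an adjusted p under 0.05. Of all 13337 features tested, 53.6% were called, 26.3% higher and 27.4% lower, and the median log2 difference of the collagens was -0.03 beside -1.02e-05 for all features. At D8, 7 collagens were higher and 16 lower than at D0, beside 29.7% and 31.5% of all features (61.2% in either direction). The median log2 difference was then -0.68 for the collagens and -0.06 for all features. By class at D8, 3 of 10 fibrillar collagens tested were higher and 6 lower (median -1.04), 3 of 6 basement membrane collagens were higher and 2 lower (median 0.56), and 1 of 12 other collagens was higher and 8 lower (median -0.69). Within each arm, 12 collagens with ROS and 9 without it were at least 2-fold below the D0 mean at D4 (16.4% and 13.2% of all features), and 7 and 8 at least 2-fold above it (16.6% and 17%). At D8 with ROS, 16 were at least 2-fold below D0 (23.4%) and 7 above it (18.6%), and without ROS 10 (12.3%) and 9 (19.1%). Between the 2 samples of D0, 1 collagen was at least 2-fold higher in the first (2.47%) and 0 lower (1.46%). Later samples of some genes are said below to lie wholly above or below D0. The D0 pair was close for most genes, and the share of all features without overlap was not counted. Such separation alone thus does not set a gene apart from other features. The test has 1 residual degree of freedom, its spread comes from the D0 pair alone, and with either D0 sample left out, 0 collagens and 0 features were called in both comparisons in a fit that takes the spread from the WT pair.

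**Figure D2:**
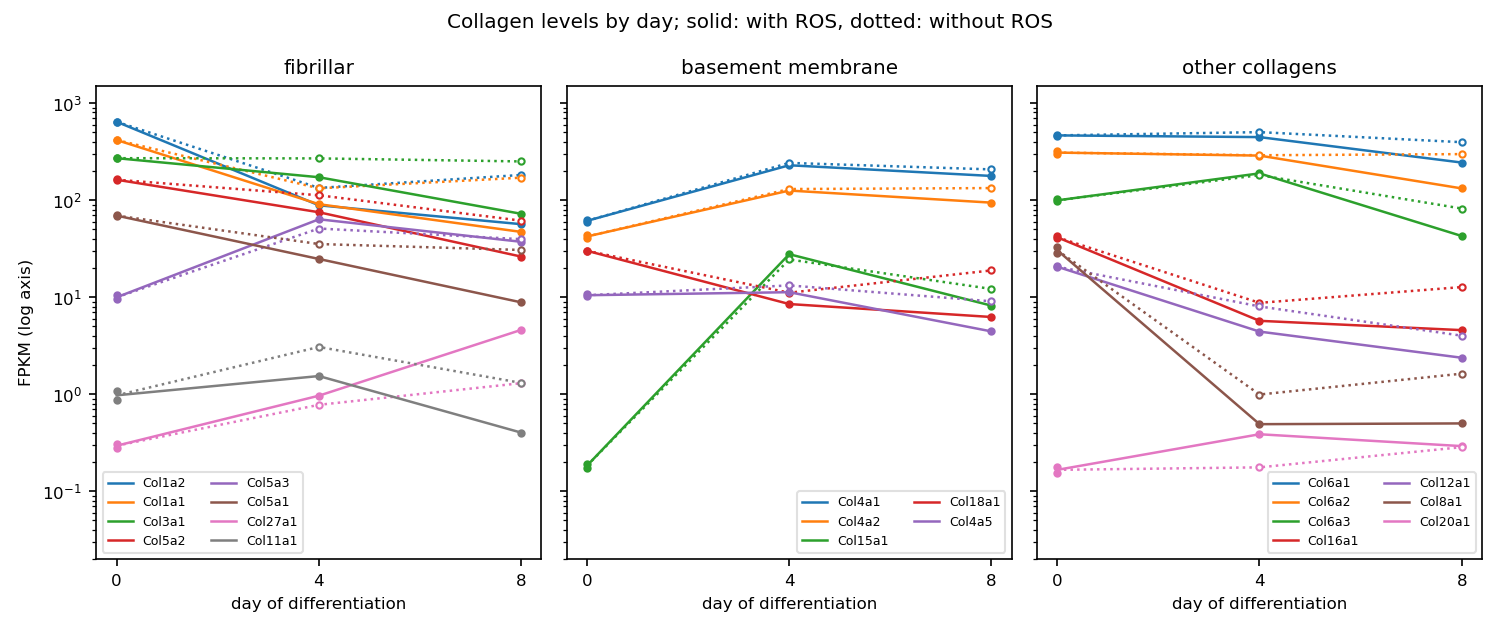
FPKM (log axis) of the 20 collagens with a mean FPKM of at least 1 against day of differentiation, in 3 panels by class. Filled points and solid lines are samples with ROS, open points and dotted lines samples without it (1 sample per point), and lines start at the mean of the 2 samples of D0; Col1a2 falls from 642 to 56.5 with ROS and to 182 without it, and Col15a1 climbs from 0.183 to 27.7 and 24.5 at D4.

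Type I collagen, the main protein of stromal fibres, fell the most among the 7 collagens with a mean FPKM of at least 100. Col1a2 (mm9 chr6:4455697-4491543) had an FPKM of 641 and 643 at D0, 88.5 at D4 with ROS, 134 at D4 without ROS, 56.5 at D8 with ROS and 182 at D8 without ROS. Col1a1 (chr11:94797584-94813170) had 412 and 420 at D0, 90.8 with and 132 without ROS at D4, and 47.1 with and 170 without ROS at D8. Both chains were below D0 in every later sample, and without ROS both were a little higher at D8 than at D4. The difference of D8 from D0 was -2.66 ± 0.07 (SE) in log2 for Col1a2 (limma adjusted p = 0.00506) and -2.22 ± 0.07 for Col1a1 (adjusted p = 0.00512). These SEs, and those of later differences from D0, do not include the difference between the arms. Col1a2 was lower than at D0 by 11.4-fold at D8 with ROS and by 3.53-fold without it. The type I collagen protein holds 2 Col1a1 chains and 1 Col1a2 chain. The ratio of Col1a1 to Col1a2 FPKM was 0.643 and 0.653 at D0 and between 0.778 and 1.11 in the other samples. This is a ratio of RNA and depends on the transcript models taken. In the first D0 sample, models of Col1a2 had an FPKM of 94.8 to 641.

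Promoters are shown for 4 of the collagens with large falls (Col1a2, Col8a1) or rises (Col5a3, Col15a1) whose promoter was matched. Others of this kind, such as Col27a1 and Col16a1, are not shown. Each promoter is given as the 250 bases before the RefSeq start in GRCm38.p6, 5′ to 3′ on the strand of the gene. Capitals mark CCAAT, the box bound by NF-Y, and GGGCGG, a core of SP1 sites, each on either strand. The windows lie at chr6:4505368-4505617 (plus strand), chr16:57754738-57754987 (minus), chr9:20815068-20815317 (minus) and chr4:47207762-47208011 (plus).
Col1a2: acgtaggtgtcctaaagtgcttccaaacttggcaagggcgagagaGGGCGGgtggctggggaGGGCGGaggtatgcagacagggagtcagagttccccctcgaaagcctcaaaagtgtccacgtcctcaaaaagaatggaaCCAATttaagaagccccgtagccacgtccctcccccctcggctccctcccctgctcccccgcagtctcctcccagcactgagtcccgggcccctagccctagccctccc
Col8a1: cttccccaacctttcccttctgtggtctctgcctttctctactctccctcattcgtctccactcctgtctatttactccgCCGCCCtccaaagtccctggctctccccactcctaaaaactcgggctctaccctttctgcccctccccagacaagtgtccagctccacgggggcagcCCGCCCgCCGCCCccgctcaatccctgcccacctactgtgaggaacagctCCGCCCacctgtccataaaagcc
Col5a3: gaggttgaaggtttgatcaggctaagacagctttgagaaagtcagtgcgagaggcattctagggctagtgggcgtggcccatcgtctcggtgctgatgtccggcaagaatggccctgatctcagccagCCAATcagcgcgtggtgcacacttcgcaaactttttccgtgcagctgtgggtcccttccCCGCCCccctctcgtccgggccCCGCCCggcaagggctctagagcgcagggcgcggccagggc
Col15a1: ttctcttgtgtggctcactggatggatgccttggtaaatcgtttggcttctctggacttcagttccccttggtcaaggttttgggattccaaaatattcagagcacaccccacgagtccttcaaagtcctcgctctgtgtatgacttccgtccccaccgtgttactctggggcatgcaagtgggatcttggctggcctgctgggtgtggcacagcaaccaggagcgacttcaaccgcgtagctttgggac
Col1a2 held 1 CCAAT, 109 bases before the start, and 2 GGGCGG, Col8a1 held 4 GGGCGG, Col5a3 held 1 CCAAT at 122 bases and 2 GGGCGG, and Col15a1 held neither. Of the 34 collagens with a matched promoter, 13 (38.2%) held CCAAT and 20 (58.8%) GGGCGG, against 37.5% and 35.4% of 27025 genes with a window of that length. TATAAA was in 5 (14.7%) beside 14.3% of all genes. The repeat bound by PPARγ with RXR, AGGTCA repeated after 1 base, was in 0 of the 34 and 0.0407% of all genes, which says only that these letters were not in these windows. The members without a matched promoter were Col5a2, Col4a3, Col9a3, Col12a1, Col1a1, Col14a1, Col22a1 and Col2a1.

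Type III collagen, the partner of type I in loose connective tissue, is a homotrimer. Its gene Col3a1 (chr1:45368383-45406551) had an FPKM of 269 and 272 at D0, 172 at D4 with ROS and 269 without it, and 72.3 at D8 with ROS and 250 without it. Without ROS it stayed close to its level at D0, and with ROS it was lower at each later day. Averaged over the arms it was lower at D8 by 1.01 in log2 (SE 0.07, limma adjusted p = 0.00887), and its adjusted p at D4 was 0.0501.

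The type V chains, which join type I fibrils and limit their width, did not move together. Col5a1 (chr2:27741945-27895030) had 68.6 and 70.0 at D0, 24.7 with and 35.3 without ROS at D4, and 8.84 with and 30.7 without ROS at D8. Col5a2 had 164 and 161 at D0, 75.0 with and 112 without ROS at D4, and 26.2 with and 61.4 without ROS at D8. Col5a3 (chr9:20574494-20619478) went the other way, with 9.48 and 10.5 at D0, 63.5 with and 51.0 without ROS at D4, and 37.2 with and 39.6 without ROS at D8. All later samples of Col5a1 and Col5a2 were below D0, and all later samples of Col5a3 above it. The log2 difference of D8 from D0 was -2.06 ± 0.07 (SE) for Col5a1, -2.01 ± 0.07 for Col5a2 and 1.94 ± 0.09 for Col5a3, with limma adjusted p of 0.00524, 0.00532 and 0.0064. The ratio of Col5a3 to Col5a1 FPKM went from 0.138 and 0.150 at D0 to between 1.29 and 4.21 in the other 9 samples.

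Col27a1 (chr4:62876446-62996024), a fibrillar collagen best known from cartilage, was low in preadipocytes and rose. It had an FPKM of 0.310 and 0.279 at D0, 0.965 with and 0.777 without ROS at D4, and 4.60 with and 1.30 without ROS at D8. Each later sample was above D0, and the sample at D8 with ROS was the highest of the time course. The log2 difference of D8 from D0 was 2.70 ± 0.09 (SE, limma adjusted p = 0.00512). Col11a1, a minor fibrillar chain, went from 1.07 and 0.874 at D0 to 1.54 with and 3.07 without ROS at D4 and to 0.402 with and 1.31 without ROS at D8. It was higher at D4 (limma adjusted p = 0.0234), while at D8 the adjusted p was 0.14.

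Col4a1 and Col4a2, the chains of the common type IV network of basement membranes, rose by D4 and remained above D0. They lie head to head on chromosome 8 in mm9 (Col4a1 11198423-11312826, Col4a2 11312829-11449287). Their RefSeq starts in GRCm38.p6 overlap by 22 bases (chr8:11312805-11312826, plus strand), shown here because both chains start within this stretch.
Col4a1-Col4a2 start overlap: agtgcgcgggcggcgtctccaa
Col4a1 had an FPKM of 59.7 and 62.6 at D0, 229 with and 242 without ROS at D4, and 177 with and 207 without ROS at D8. Col4a2 had 40.6 and 43.8 at D0, 126 with and 130 without ROS at D4, and 94.2 with and 133 without ROS at D8. No later sample of the time course overlapped D0 for either chain. The log2 difference from D0 was 1.94 ± 0.08 (SE) at D4 and 1.65 ± 0.08 at D8 for Col4a1, and 1.60 ± 0.08 and 1.41 ± 0.08 for Col4a2, with limma adjusted p between 0.00613 and 0.00823. The ratio of Col4a1 to Col4a2 FPKM lay between 1.36 and 1.88 in all 11 samples.

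Col15a1 (chr4:47220884-47326037), which links basement membranes to the fibres beside them, showed the largest rise of any collagen tested. It had an FPKM of 0.193 and 0.174 at D0, 27.7 with and 24.5 without ROS at D4, and 8.18 with and 12.2 without ROS at D8. It was highest at D4 in both arms, 151-fold above D0 with ROS and 133-fold without it. The log2 difference from D0 was 6.53 ± 0.08 (SE) at D4 and 5.15 ± 0.08 at D8 (limma adjusted p = 0.00613 and 0.00506). Col18a1 (chr10:76514924-76629275), the related collagen whose C-terminal fragment is endostatin, moved oppositely, with 30.0 and 30.2 at D0, 8.50 with and 11.1 without ROS at D4, and 6.25 with and 18.9 without ROS at D8. It was lower at D8 by 1.46 in log2 (SE 0.07, limma adjusted p = 0.00627). Col4a5, a minor type IV chain, had 10.7 and 10.2 at D0, 11.3 and 13.2 at D4 and 4.44 and 9.07 at D8 with and without ROS, and fell by 0.71 in log2 at D8 (SE 0.08, limma adjusted p = 0.0155).

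The type VI chains were held at high levels until D4. Col6a1 had an FPKM of 457 and 472 at D0, 446 with and 502 without ROS at D4, and 244 with and 395 without ROS at D8. Col6a2, its neighbour on chromosome 10, had 298 and 320 at D0, 288 and 290 at D4 with and without ROS, and 132 with and 298 without ROS at D8. Col6a3, the largest chain and the source of the endotrophin fragment, had 97.2 and 102 at D0, rose to 189 and 181 at D4 with and without ROS, and had 42.7 with and 81.9 without ROS at D8. At D8 the sample without ROS was close to the lower D0 value for Col6a2 and below both for Col6a1 and Col6a3, and all 3 chains were further below D0 with ROS. The log2 difference of D8 from D0 was -0.58 ± 0.07 (SE) for Col6a1, -0.64 ± 0.08 for Col6a2 and -0.75 ± 0.07 for Col6a3, with limma adjusted p of 0.0193, 0.0207 and 0.0141. At D4 the adjusted p was 0.0131 for Col6a3, 0.772 for Col6a1 and 0.402 for Col6a2. The ratio of Col6a3 to Col6a2 FPKM was between 0.275 and 0.656 over the 11 samples, and that of Col6a1 to Col6a2 between 1.33 and 2.14. These ratios depend on the transcript models taken. In the first D0 sample, models of Col6a3 had an FPKM of 56.1 to 97.2 and those of Col6a2 163 to 298.

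Of the remaining collagens, 3 that were well expressed in preadipocytes fell. Col8a1 (chr16:57624369-57754850), a short network-forming chain, had an FPKM of 32.7 and 28.2 at D0, 0.491 with and 0.992 without ROS at D4, and 0.500 with and 1.63 without ROS at D8. Col16a1 had 40.6 and 42.3 at D0, 5.70 with and 8.74 without ROS at D4, and 4.58 with and 12.7 without ROS at D8. Col12a1, a collagen found on the surface of fibrils, had 20.8 and 20.4 at D0, 4.42 with and 8.03 without ROS at D4, and 2.38 with and 4.01 without ROS at D8. In each of the 3, the later samples of the time course did not overlap D0, a pattern not counted over all features. The log2 difference of D8 from D0 was -4.90 ± 0.12 (SE) for Col8a1, the largest fall of the collagens tested, -2.42 ± 0.07 for Col16a1 and -2.70 ± 0.07 for Col12a1 (limma adjusted p = 0.00506, 0.00509 and 0.00506). Col20a1 was the only higher member of the other collagens at D8, with 0.179 and 0.154 at D0, 0.387 and 0.176 at D4 and 0.292 and 0.285 at D8 with and without ROS (limma adjusted p = 0.0312).

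**Figure D3:**
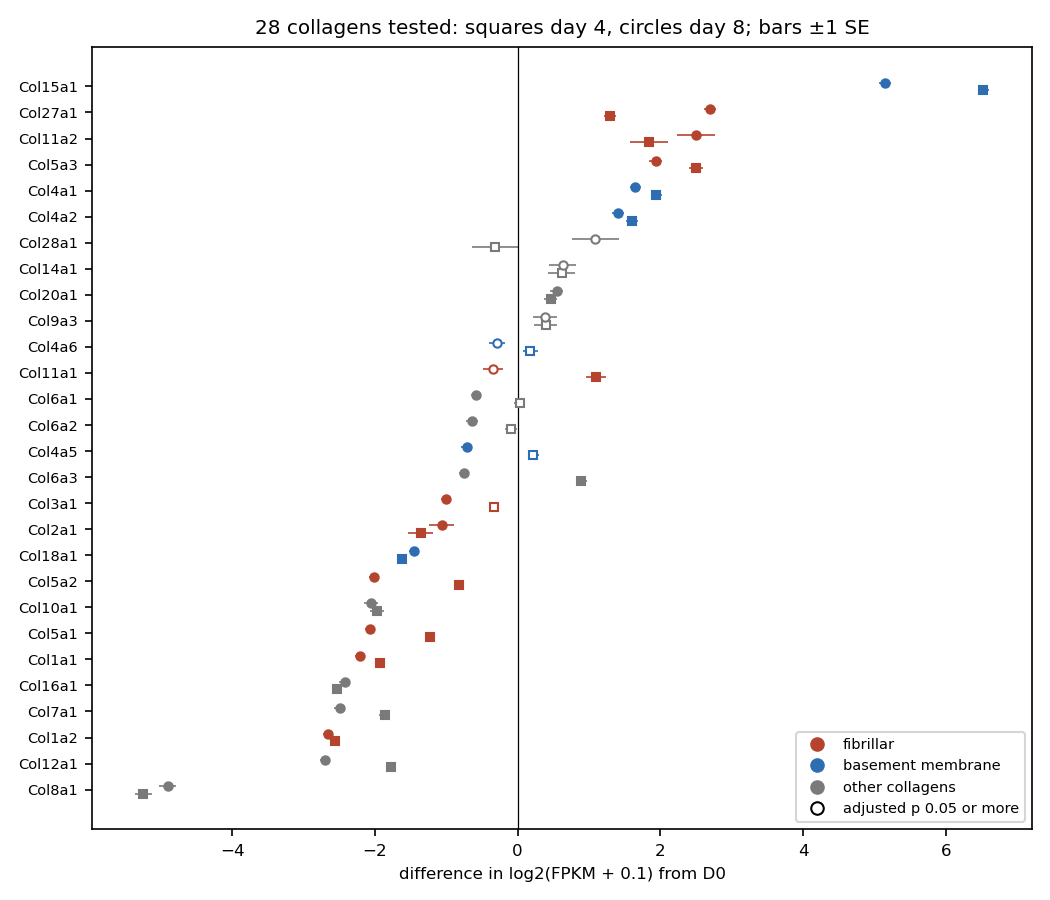
Difference in log2(FPKM + 0.1) from D0 at D4 (squares) and D8 (circles), averaged over both arms, for the 28 collagens tested; bars are ±1 SE from limma with spread from the D0 pair, filled symbols have an adjusted p under 0.05, and colours give the class. Col15a1 (6.53 at D4) and Col8a1 (-5.25 at D4) lie at the ends, and the type VI chains lie between -0.75 and 0.89.

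Adipocyte markers as a sum were higher, and 3 of 4 smooth muscle markers lower, in every later sample of the time course than at D0. The summed FPKM of 7 adipocyte markers was 267 and 268 at D0 and at least 11038 in later samples, and that of 4 smooth muscle markers was 159 to 172 at D0 and 4.33 to 19.9 at D4 and D8. Acta2, an actin also made by activated fibroblasts, had an FPKM of 131 and 140 at D0 and 2.52 to 12.6 at D4 and D8, while Myh11, the myosin of smooth muscle, had 0.0226 and 0.00653 at D0 and 0.952 to 1.80 at D4 and D8. The 7 preadipocyte markers summed to 554 and 623 at D0 and to 145 to 575 at D8. Ly6a made up most of each sum, with 424 and 484 at D0 and 108 with and 495 without ROS at D8. Pdgfrb was at 70.3 and 73.2 at D0 and at 8.11 with and 16.1 without ROS at D8, and Pdgfra at 11.9 and 11.8 at D0 and 18.3 and 35.2 at D8. In bulk samples, fewer cells of a type and less RNA per cell cannot be told apart, and the part of these cell states in the collagen changes was not tested.

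Genes that make, export, process and bind collagen were mostly lower with differentiation. A list of 49 genes of collagen synthesis, secretion, cleavage, cross-linking and uptake had 44 members in the files and 38 tested. At D4, 33 were lower and 2 higher than at D0, beside 27.4% and 26.3% of all features. At D8, 32 were lower and 1 higher, beside 31.5% and 29.7% of all features, with a median log2 difference of -1.41 beside -0.06 for all features. All 5 lysyl oxidases, which cross-link collagen fibres, were lower at D8 with a median of -2.51. Lox had an FPKM of 297 and 246 at D0, 55.8 with and 121 without ROS at D4, and 31.3 with and 71.9 without ROS at D8. Serpinh1, the collagen chaperone HSP47, had 323 and 340 at D0, 101 and 131 at D4 and 67.4 and 205 at D8 with and without ROS. Every later sample was below D0 for both genes. The largest falls at D8 were in Loxl4, P4ha3 (a prolyl hydroxylase subunit), Adamts14 (a propeptide-cleaving protease) and Pcolce2 (an enhancer of that cleavage), with log2 differences of -3.31, -3.27, -3.13 and -2.84 (limma adjusted p between 0.00506 and 0.0054). Itga1, a collagen receptor chain, was higher at D8 by 1.10 in log2 (limma adjusted p = 0.00846), at an FPKM of 0.464 and 0.445 at D0 and 0.803 and 1.47 at D8 with and without ROS.

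At D8, in the 1 untransduced sample of each arm, most collagens had a lower FPKM with ROS than without it. Of 28 collagens compared, 14 had an FPKM ratio of at most 0.5, beside 14.4% of all features, and 2 had a ratio of at least 2, beside 3% of all features (13321 compared). The median ratio was 0.505 for the collagens and 0.855 for all features. Of the 20 with a mean FPKM of at least 1, the ratio was below 1 in 18 and at most 0.5 in 11, and the difference was below 0 in 69.8% of all features. The lowest ratios were in Col1a1 (0.276), Col5a1 (0.289), Col3a1 (0.289), Col8a1 (0.307) and Col11a1 (0.307), followed by Col1a2 (0.311), Col18a1 (0.331) and Col16a1 (0.360). Among the collagens of this level that were called higher at D8 than at D0, the ratio was 0.940 for Col5a3, 0.856 for Col4a1, 0.708 for Col4a2 and 0.673 for Col15a1. Col27a1, also among them, was higher with ROS, 4.60 against 1.30 (ratio 3.54), and Col20a1 had a ratio of 1.03. The 5 transduced samples, also at D8 with ROS, did not share the low level of Col1a1. It lay between 128 and 183 there, beside 47.1 with and 170 without ROS in untransduced cells. Their Col27a1 lay between 1.87 and 11.6. They also carried the shRNA and hJMJD1A, so they are not replicates of the ROS arm.

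Each arm had 1 sample at D8, and with the spread of the D0 pair, limma called 0 of the 28 collagens and 0 of 13337 features between the arms. At an unadjusted p under 0.05 there were 20 collagens, beside 33.3% of all features, and the smallest adjusted p was 0.0624. With features limited to a mean FPKM of at least 1, 14 of 19 collagens were lower and 1 higher, and 1673 of 11259 features were called, so the absence of calls rests on the filter. The ratios also carry a shift of all genes: scaling by the median ratio over 13358 genes moved every ratio at D8 up by 0.25 in log2. After scaling, 9 collagens were at most 0.5, beside 10.2% of all features, the median ratio was 0.602, and the ratio crossed 1 for Col4a1 (1.02) and Col5a3 (1.12). Col1a1 (0.329), Col5a1 (0.344), Col3a1 (0.344) and Col1a2 (0.371) were still at most 0.5. Fabp4, the fatty acid binding protein and most abundant adipocyte transcript, took 6.17% of coding FPKM at D8 with ROS and 1.61% without it, and without Fabp4 in the total the collagen share was 0.204% and 0.411%. The summed FPKM of the 7 adipocyte markers was 36332 with ROS and 11038 without it at D8, of which Fabp4 made up 31402 and 7631 and the other 6 summed to 4930 and 3407. Pparg (140 and 231) and Cfd (1182 and 1887), the adipocyte protease adipsin, were lower with ROS. The sum of preadipocyte markers was 145 with ROS and 575 without it, of which Ly6a alone made up 108 and 495. Zfp423, another of these markers, was higher with ROS (5.32 and 4.08). The sum of smooth muscle markers was 7.56 and 19.9, and the part of all these markers in the ROS ratios was not tested.

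**Figure D4:**
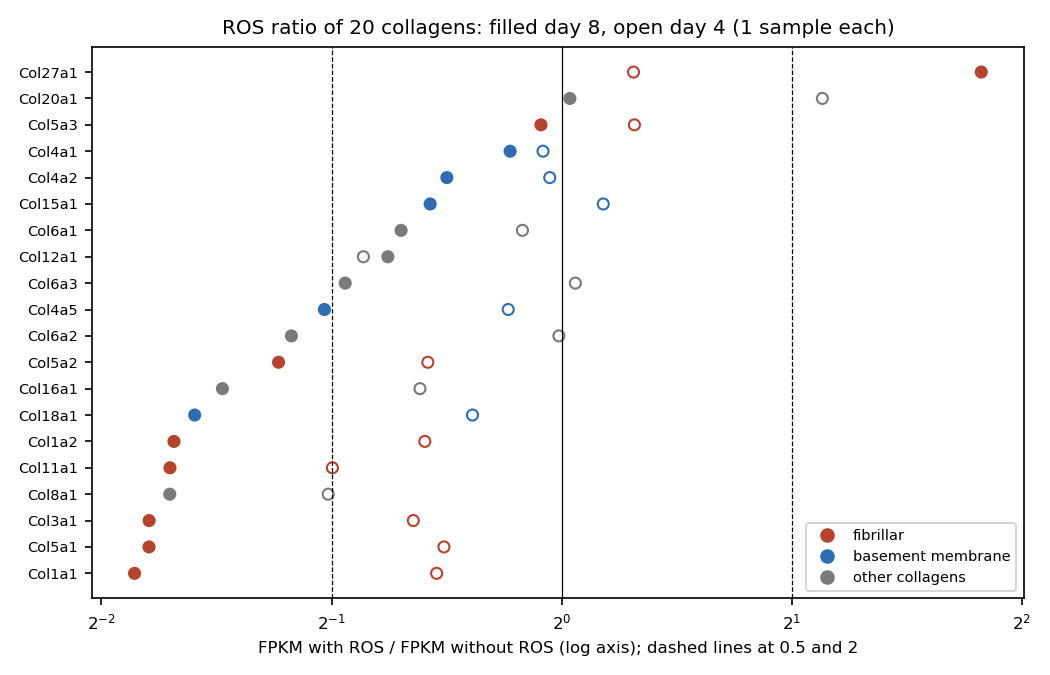
FPKM with ROS divided by FPKM without ROS (log axis) for the 20 collagens with a mean FPKM of at least 1, at D8 (filled) and D4 (open), from 1 sample per condition, with colours for the class. At D8, 11 lie at or below 0.5 and Col27a1 at 3.54, and with median-ratio scaling Col4a1 and Col5a3 lie above 1.

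At D4 the ratios were closer to 1. Of 28 collagens, 2 were at least 2-fold lower with ROS (3.55% of all features) and 1 was at least 2-fold higher (1.55%), with a median ratio of 0.820 beside 0.955. Col8a1 was 0.491 with ROS and 0.992 without it, and Col20a1 0.387 against 0.176. Limma called 0 collagens and 0 features, and 12 collagens had an unadjusted p under 0.05, beside 10.5% of all features. The change of the ROS difference from D4 to D8 was -1.31 ± 0.14 (SE) in log2 for Col1a1 and 1.47 ± 0.17 for Col27a1, with an adjusted p of 0.238 for both in limma. For that change 0 collagens and 0 features were called, and 15 collagens were under an unadjusted p of 0.05, beside 17.1% of all features.

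The change from D4 to D8 was taken within each arm. With ROS, 8 collagens were at least 2-fold lower at D8 than at D4 (7.53% of all features) and 3 at least 2-fold higher (5.54%). Without ROS, 5 were at least 2-fold lower (3.06%) and 2 at least 2-fold higher (8%). Col6a3, Col11a1 and Col15a1 were at least 2-fold lower in both arms. Col1a1, Col1a2, Col16a1, Col18a1 and Col8a1 had a D8 to D4 ratio of 1.29, 1.36, 1.45, 1.70 and 1.64 without ROS and of 0.518, 0.639, 0.802, 0.735 and 1.02 with ROS. Averaged over the arms, limma called 0 collagens and 0 features between D4 and D8. There, 17 collagens had an unadjusted p under 0.05, beside 39.3% of all features. With a mean FPKM of at least 1 as the filter, 12 of 19 collagens passed (2291 of 11259 features). The lowest log2 difference was in Col6a3 (-1.64 ± 0.07, SE, adjusted p = 0.0745).

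Averaged over D4 and D8, the ROS difference had a median of -0.61 in log2 for the collagens and -0.14 for all features. Limma called 0 collagens and 0 features there too, with 18 collagens under an unadjusted p of 0.05, beside 30% of all features. Of the 38 tested genes of collagen synthesis, secretion, cleavage, cross-linking and uptake, 37 had a lower FPKM with ROS at D8, beside 69.8% of all features. Their median ratio was 0.510 beside 0.855, and 19 were at least 2-fold lower beside 14.4% of all features. After median-ratio scaling, 36 were lower and 15 at least 2-fold lower, beside 10.2% of all features for the latter. None of these passed the adjusted threshold (smallest adjusted p 0.0624). Creb3l1, a transcription factor of collagen-secreting cells, had an FPKM of 1.22 with and 8.22 without ROS at D8, and Pcolce, an enhancer of propeptide cleavage, 71.1 and 283.

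In the transduced cells, the comparison asked whether collagens follow the state of JMJD1A. WT A and WT B themselves differed: of 30 collagens compared, 5 were at least 2-fold higher in WT A (9.61% of all features) and 7 at least 2-fold lower (14.4%). Limma, which here took its spread from WT A and WT B, called 0 collagens and 0 of 13474 features in S265A, S265D or S265D-H1120Y against WT, or in S265D-H1120Y against S265D. At an unadjusted p under 0.05 there were 0 collagens for S265A, 0 for S265D, 1 for S265D-H1120Y against WT and 1 for S265D-H1120Y against S265D, beside 0.623%, 0.512%, 2.03% and 1.35% of all features. With WT B left out and the spread taken from the D0 pair, 4 of 28 collagens and 2019 of 13458 features were called for S265D-H1120Y against WT. The median log2 difference of the collagens from WT was -0.03 for S265A, 0.04 for S265D and -0.12 for S265D-H1120Y. With 1 sample of each mutant, a difference the size of that between WT A and WT B could not be told from the replicate spread.

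Over the 5 transduced samples, the highest FPKM was 1.44 times the lowest for Col1a1, 1.33 for Col1a2, 1.73 for Col3a1 and 1.86 for Col6a3. Col1a1 had an FPKM of 150 and 183 in WT A and WT B, 128 in S265A, 146 in S265D and 154 in S265D-H1120Y. Col1a2 had 135 and 179 in WT A and WT B, 164 in S265A, 148 in S265D and 151 in S265D-H1120Y. Col3a1 had 118 and 133 in WT A and WT B, 124 in S265A, 77.2 in S265D and 115 in S265D-H1120Y. S265A and S265D were below both WT samples for Col1a1, as were S265D and S265D-H1120Y for Col3a1. The log2 difference from WT was -0.38 ± 0.49 (SE) for S265A and -0.18 ± 0.49 for S265D in Col1a1, and -0.70 ± 0.48 for S265D in Col3a1. The share of all features below both WT samples was not counted. All 5 transduced samples were above the 1 untransduced sample at D8 with ROS for these 3 genes, by little for Col3a1 in S265D (77.2 and 72.3). How many of all features lay above that sample in the same way was not counted. The transduced cells also carried the shRNA and had been through G418 and zeocin selection, and the part of these was not tested. Col6a1 lay between 422 and 596, Col6a2 between 197 and 297 and Col6a3 between 97.1 and 181 over the 5 samples.

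Among the basement membrane collagens, Col4a1, Col4a2 and Col15a1 were highest in WT A. Col4a1 had 210 and 139 in WT A and WT B, 169 in S265A, 127 in S265D and 115 in S265D-H1120Y, and Col4a2 had 150, 85.5, 110, 83.3 and 84.7 in the same order. Col15a1 had 76.6 in WT A and 18.8 in WT B, a 4.08-fold difference within the WT group, and 47.1 in S265A, 58.3 in S265D and 51.7 in S265D-H1120Y, all between the WT samples. Col5a3 had 32.0 in WT A and 98.4 in WT B, with 66.9, 59.0 and 51.5 in the 3 mutants, again between them. Col16a1 had 5.75 and 16.3 in WT A and WT B and 10.8, 14.2 and 11.2 in S265A, S265D and S265D-H1120Y.

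Col27a1 differed between the mutants, with 1 sample of each. It had an FPKM of 6.62 in WT A, 5.14 in WT B, 3.35 in S265A, 11.6 in S265D and 1.87 in S265D-H1120Y. S265A and S265D-H1120Y were below both WT samples and S265D above both, while the WT samples differed by 1.29-fold. The share of all features with this order was not counted. S265D was 6.22-fold above S265D-H1120Y, a log2 difference of -2.57 ± 0.57 (SE, limma adjusted p = 1, unadjusted p = 0.0104) for the double mutant. Of the 30 collagens tested, Col27a1 had the lowest log2 difference between the double mutant and S265D, where 1.35% of all features had an unadjusted p under 0.05. Against S265D, 4 collagens were at least 2-fold lower in S265D-H1120Y (7.31% of all features) and 2 at least 2-fold higher (4.31%). The other 3 lower ones were weakly expressed, such as Col22a1 with 0.569 in S265D and 0.0141 in S265D-H1120Y, 0.783 in WT B and 0.00881 in WT A.

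Against WT A, 3 collagens were at least 2-fold lower in S265A (6.72% of all features), 2 in S265D (6.15%) and 2 in S265D-H1120Y (10.7%), and against WT B, 3 (5.81%), 0 (2.88%) and 5 (7.38%). At least 2-fold higher than WT A were 5 in S265A (9.73%), 7 in S265D (11.6%) and 3 in S265D-H1120Y (12.1%), and than WT B 3 (4.42%), 3 (4.4%) and 3 (5.24%). Col12a1 was at least 2-fold below WT A in all 3 mutants and in none below WT B. Its FPKM was 39.1 in WT A and 6.92 in WT B, with 8.16 in S265A, 8.53 in S265D and 6.02 in S265D-H1120Y. In WT A the reads lay mostly at the downstream end of the gene: a short transcript model there had an FPKM of 95.0 and one at the upstream end 2.78, a ratio of 34.2, while the ratio was between 1.57 and 2.35 in the other 10 samples. The cause was not tested. The antisense share of bases on collagens was 0.330% in WT A and 0.355% in S265A, and 0.212% to 0.244% in the other transduced samples.

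**Figure D5:**
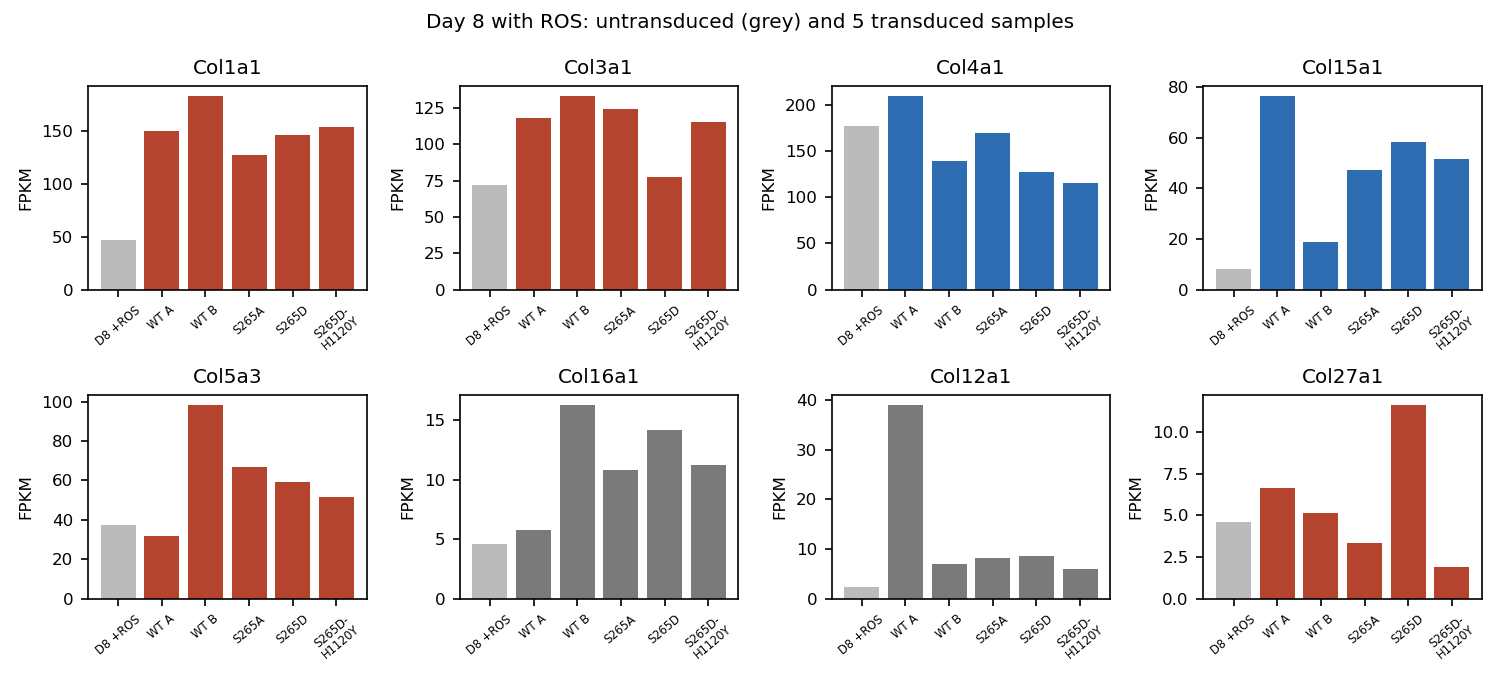
FPKM (linear axes from 0) of 8 collagens at D8 with ROS in untransduced cells (grey) and in the 5 samples transduced with WT, S265A, S265D or S265D-H1120Y hJMJD1A (1 bar per sample, colours for the class). WT A and WT B differ by 5.65-fold for Col12a1 and 4.08-fold for Col15a1, and S265D is the highest for Col27a1 (11.6).

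The 22 collagens with a mean FPKM under 1 included cartilage collagens (Col2a1, Col9a1, Col9a2, Col9a3, Col10a1), transmembrane collagens (Col13a1, Col17a1, Col23a1, Col25a1) and the kidney type IV chains Col4a3 and Col4a4. Only Col28a1, Col7a1, Col4a6 and Col11a2 reached an FPKM of 1 in any sample, and the highest value was 1.87 for Col11a2 at D8 with ROS. Col7a1, which makes the anchoring fibrils of skin, was at 1.61 and 1.52 at D0 and at 0.215 with and 0.176 without ROS at D8 (limma adjusted p = 0.00509). Col11a2 had 0.221 and 0.115 at D0, 0.860 and 0.820 at D4 and 1.87 and 1.02 at D8 with and without ROS (limma adjusted p = 0.0158 at D8). The scale of log2(FPKM + 0.1) understates the fold changes of members this low.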

How the data were processed

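RNA-seq of 11 im-scWAT samples was used. The authors prepared TruSeq libraries, mapped the reads to UCSC transcripts and to mm9 with Burrows-Wheeler aligner, refined them by a local realignment and worked out FPKM for each strand; software versions are not given in the sources used here. The authors deposited FPKM for each transcript and strand, with its log10. The deposited files also hold log2 of the FPKM and the coverage signal as mapped bases, which are not read counts.

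Groups came from the sample labels. Sense, representative, coding rows were used, with members, classes and lists chosen with earlier results of these data known. Differences in log2(FPKM + 0.1) were tested with limma 3.58.1 (R 4.3.3), a mean per group and Benjamini-Hochberg adjustment over all features with a mean FPKM of at least 0.1, at a threshold of 0.05, separately for the 6 time course and 5 transduced samples, with 1 residual degree of freedom each. The script was tested on simulated data. Ratios had no pseudocount. Members with a mean FPKM of at least 1 were named, and others that are named were chosen after their values were seen. The log2 median of each class was taken over the members tested. Tables were made in pandas 2.3.3 (numpy 2.4.6, Python 3.11.15), and figures in matplotlib 3.10.9. Alternatives changed the pseudocount, filter, transcript, scaling, fit and samples. The total without Fabp4 and the block on the arm were added after seeing the data.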

Additional observations from a re-analysis of the deposited data

How the results depend on the processing

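Over 20 named collagens, no difference from D0 that was called in the main fit or in an alternative changed direction between them. Changes of sign without a call in either were not counted. Without the leave-outs, 6 of 16 calls at D4 (Col15a1, Col18a1, Col1a1, Col1a2, Col4a1, Col8a1) and 9 of 19 at D8 (those and Col27a1, Col5a1, Col5a2) passed in every setting. The counts that follow are of collagens only, without the share of all features in the same setting. They thus do not show whether the collagens moved apart from other genes. The 20 collagens called at D4 became 11 and the 23 at D8 became 13 in a fit of all 11 samples, and without a filter on low values the latter became 15. Without D0 replicate 1 or 2 the number was 0 to 0 in both comparisons, since that fit takes its spread from the WT pair and assumes the lone sample to vary like it. From D4 to D8, where 0 were called, 12 were called with a mean FPKM of at least 1, 6 without a filter, 7 with median-ratio scaling and 2 in an additive fit. For ROS, where 0 were called, a mean FPKM of at least 1 gave 15 at D8 and 13 averaged over days, and no filter gave 7, 9 and, at D4, 1. The 14 collagens at least 2-fold lower with ROS at D8 became 8 with a pseudocount of 1 and 9 with scaling, and the 2 at D4 became 0 with a pseudocount of 1, 1 with a mean FPKM of at least 1, 4 without a filter and 1 with scaling. For S265D-H1120Y against WT, the range without WT replicate A or B was 0 to 4 collagens, with the spread then taken from the D0 pair. The collagen share at D0 was 0.577% with the highest-mean transcript and 0.560% with noncoding rows, which gave 0.169% at D8 with ROS and 0.366% without it. Chosen after seeing the data, the arm of the time course was used as a replicate block, although after D0 the arm is the ROS condition itself. With the replicate block 14 collagens were called at D4, 17 at D8 and 0 from D4 to D8. The SE of the log2 difference of D8 from D0 was then 0.42 for Col1a2 and 0.33 for Col6a2. In the main fit it was 0.07 and 0.08. Among the named collagens, Col5a1, Col5a2, Col6a3, Col11a1, Col20a1 and Col27a1 were no longer called at D4, nor Col3a1, Col4a5, Col6a1, Col6a2, Col6a3 and Col20a1 at D8. The arms' differences did not pair the days: across 13337 features their correlation was -0.22 for D0 and D4, -0.03 for D0 and D8 and 0.45 for D4 and D8. The transduced groups share fewer than 2 replicate numbers, so no block could be fitted there. Mapped bases rather than counts were deposited, so no count test was run, and members near an FPKM of 0.1 rest on few bases.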
